A study of Mus musculus with 36 samples.

Results

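The kidney response to a ketogenic diet was measured by comparing 7 kidney RNA sequencing libraries from mice on the ketogenic diet with 5 from mice on the control diet, which are 12 of the 36 libraries of the series. Members were taken by their titles and diet labels, and every gene with enough counts was tested. All 12 libraries come from male C57BL/6 NIA mice aged 12 months whose kidneys were collected between midnight and 3 am, during feeding. The control diet, AIN-93M, supplied 12% of energy as fat, 10% as protein and 78% as carbohydrate. The ketogenic diet supplied 90% as fat and 10% as protein, with no carbohydrate share given in its label, and was fed for 1 week after habituation to the control diet. These shares are those of the sample labels, while the series' design text gives every diet 10% of energy from carbohydrate. A non-ketogenic high-fat diet (75% fat, 10% protein, 10% carbohydrate, also 1 week, 6 kidney libraries) has its values cited only for comparison. Its 6 libraries were fitted together with the 12, however, so they entered the estimate of spread behind the p-values. The number of calls with control and ketogenic libraries alone in the fit is given further below. The labels do not say that each library is a separate mouse, so p-values measure the spread between these libraries.

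The kidney filters blood, and its proximal tubule cells, which recover most filtered solutes, draw their energy chiefly from fatty acid oxidation rather than glycolysis. When carbohydrate is scarce, fatty acids released from adipose tissue activate the nuclear receptor PPAR alpha, which raises genes of fatty acid transport, oxidation and storage, while low insulin lowers the lipogenic program. The kidney cortex also makes glucose and, under acid load, ammonia from glutamine.

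Depth was 25.4 to 40.2 M counts per library, of which 68.3 to 74.7% on the control diet and 70.4 to 76.5% on the ketogenic diet fell on the mitochondrial chromosome. That share was 2.21 percentage points higher on the ketogenic diet (two-sided exact permutation test over 12 libraries, p = 0.111). With 1 library left out in turn, p of the same test ran from 0.0364 (without control library 4) to 0.261 (without control library 0). It was under 0.05 only without control library 4 and without ketogenic library 5 (0.0476), and otherwise at least 0.108. Proximal tubule markers were the most abundant of 16 cell type lists, with summed levels of 3541 to 5379 counts per M counts (CPM) on control and 4217 to 5976 CPM on ketogenic, and the 2 diets' ranges overlapped for all 16 lists. In bulk tissue, fewer cells of a type and less RNA per cell cannot be told apart.

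Of 15074 genes tested, 43 rose and 6 fell on the ketogenic diet at an adjusted p under 0.05, which is 0.325% of genes tested (0.285% higher and 0.0398% lower). Adjusted p-values throughout are from edgeR's quasi-likelihood test with Benjamini-Hochberg adjustment over all 15074 genes, and log2 changes carry their standard error (SE). The rises ran from 0.52 to 4.02 on the log2 scale with a median of 1.01, against a median of 0.02 over all genes, and 22 of them were at least 2-fold. Of the 6 falls, 3 were at least 2-fold. For each of the 43 genes that rose no ketogenic library was below the mean of the controls, and for each of the 6 that fell none was above it. Because these same libraries chose the genes, this and the ranges that follow describe the calls and do not support them. The ketogenic and control ranges were apart for 38 of the 43 genes that rose and 4 of the 6 that fell. Over all genes tested, 0.71% had ranges apart, 0.531% higher and 0.179% lower on the ketogenic diet. The first genes outside the threshold were Cpt2 at adjusted p = 0.0523, Slc25a37 at 0.0547, Mgll and Acsl1 at 0.0559 and Thrsp at 0.0598.

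**Figure D1:**
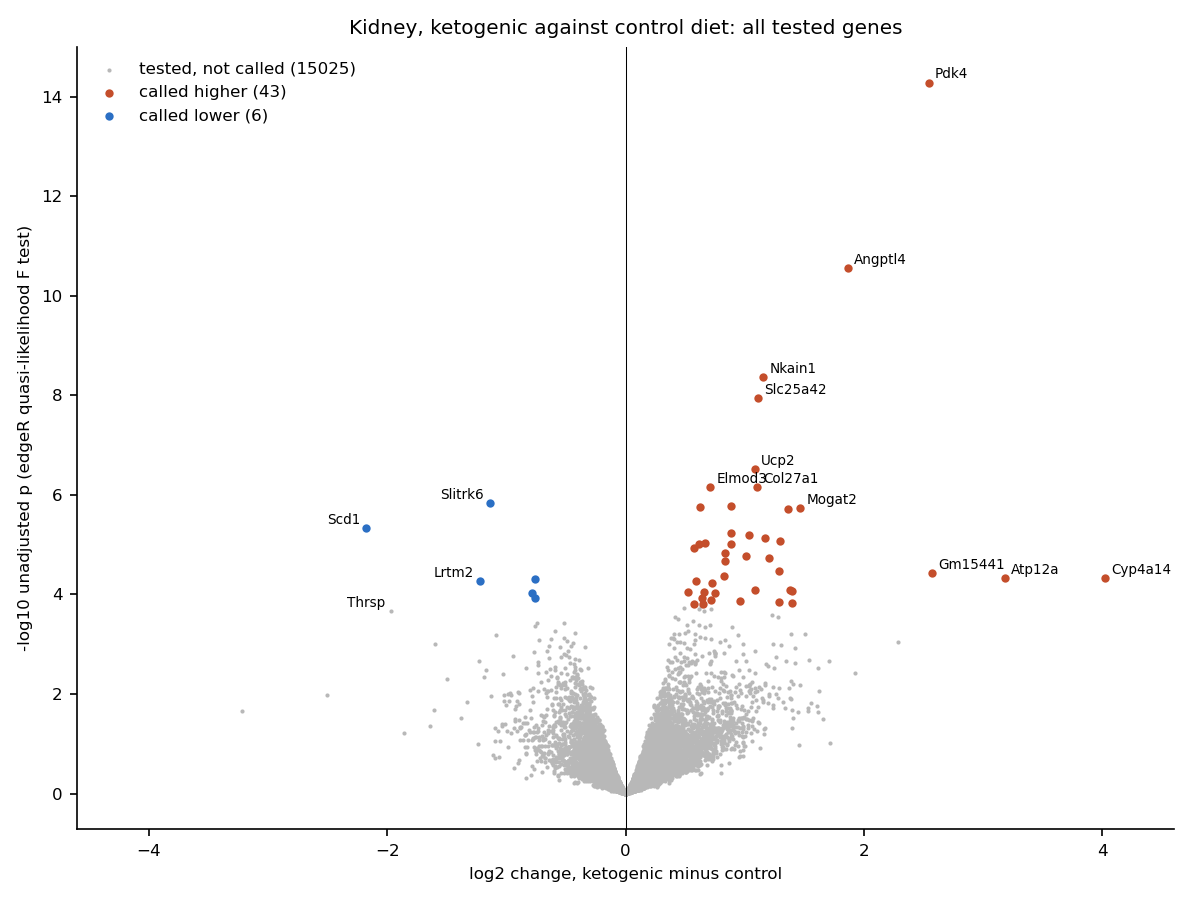
Log2 change (x axis, ketogenic minus control) against -log10 of the unadjusted p (y axis) for the 15074 tested kidney genes, one point per gene. The 43 genes called higher (red) stand against 6 called lower (blue), with Pdk4 and Angptl4 at the smallest p and Cyp4a14 at the largest change.

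Of the 49 genes, 22 belong to at least 1 of 29 pathway lists and 27 to none. The known targets of PPAR alpha outside oxidation held 7 called rises among 21 tested genes and no fall, with a list median of 0.57. They were Pdk4, Angptl4, Ucp2, Acot1, Plin2, Plin5 and Vnn1. Peroxisomal and omega oxidation held 8 rises among 25 tested genes, with 24 of the 25 above 0, against 53.2% of all genes tested, and a median of 0.42. Mitochondrial fatty acid oxidation held 2 among 23, with 19 above 0 and a median of 0.27.

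Pdk4 (chr6:5433351-5446309, minus strand, mm9), the kinase that shuts off pyruvate dehydrogenase and so spares glucose carbon, showed the smallest p. Its level was 6.16, 6.85, 6.67, 4.90 and 6.59 CPM in the 5 control libraries and 26.9, 36.6 and 48.97 CPM as lowest, median and highest of the 7 ketogenic libraries. Every ketogenic library was far above every control, and the log2 change was 2.55 ± 0.16 (adjusted p = 7.89e-11). Angptl4, a secreted inhibitor of lipoprotein lipase, went from 9.69 ± 1.59 CPM (SD, n = 5) to 35.3 ± 7.18 CPM (SD, n = 7), a log2 change of 1.87 ± 0.17 (adjusted p = 2.11e-07). Ucp2, an inner-membrane carrier linked to fatty acid use, read 25.4, 27.6, 16.3, 25.6 and 19.02 CPM on control and 33.4, 48.9 and 61.8 CPM as lowest, median and highest on ketogenic. Its groups did not overlap, with a log2 change of 1.09 ± 0.16 (adjusted p = 0.000934).

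Of the thioesterase genes that lie together on chromosome 12 and split acyl-CoA into fatty acid and CoA, Acot1, Acot2 and Acot3 rose. Acot1 rose by a log2 of 1.36 ± 0.21, Acot3 by 1.29 ± 0.23 and Acot2 by 1.01 ± 0.19, and their control and ketogenic ranges were apart. Acot4, between them, stood at 0.43 ± 0.16 (adjusted p = 0.438) with overlapping ranges, and Acot6 at 0.25 ± 0.17 (adjusted p = 0.727). The genes are close copies whose reads may be shared, so their separate values are uncertain, and Acot3 also overlaps 4732463B04Rik on the other strand. Of the peroxisomal genes, Acaa1b (a thiolase) went from 15.2 ± 2.99 CPM to 28.1 ± 4.04 CPM (log2 change 0.88 ± 0.14) and Pex11a (peroxisome division) from 26.6 ± 2.03 CPM to 41.1 ± 3.003 CPM (0.63 ± 0.10), both at adjusted p = 0.00238. Pxmp4, a peroxisomal membrane protein, rose by 0.59 ± 0.12. The largest change was in Cyp4a14, of a cytochrome family that hydroxylates the omega end of fatty acids, at 16.3, 17.6, 19.7, 4.70 and 2.09 CPM on control and 95.9, 215 and 268 CPM as lowest, median and highest on ketogenic. Cyp4a14 changed by 4.02 ± 0.72, Cyp4a10 by 1.40 ± 0.30, Cyp4a12b by 1.38 ± 0.28 and Cyp4a31 by 0.83 ± 0.17. Cyp4a12a stood at 0.46 ± 0.39 (adjusted p = 0.797). These genes also lie in a cluster of similar sequences on chromosome 4, and the ketogenic and control ranges overlapped for Cyp4a10 and Cyp4a31. With 1 library left out in turn, Cyp4a10 lost its call without 10 of the 12 libraries (adjusted p 0.0586 to 0.165), Cyp4a31 without 7 (0.05001 to 0.143), Cyp4a12b without 6 (0.0565 to 0.155) and Cyp4a14 without 4 (0.0505 to 0.0852).

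Carriers of the mitochondrial inner membrane and of the plasma membrane were among the genes that rose. Slc25a42 (chr8:72708239-72736204, minus strand, mm9), which exchanges coenzyme A for adenine nucleotides across the inner membrane, read 18.8, 25.4, 29.3, 23.7 and 21.6 CPM on control and 41.9, 53.3 and 61.6 CPM as lowest, median and highest on ketogenic. The lowest ketogenic library was above the highest control, and the log2 change was 1.11 ± 0.14 (adjusted p = 4.35e-05). Slc25a34, a carrier of the same family whose substrate is not settled, went from 4.79 ± 0.834 CPM to 8.86 ± 1.52 CPM (0.89 ± 0.16, adjusted p = 0.00641). Slc25a20, the carnitine/acylcarnitine translocase that admits long-chain fatty acids for oxidation, rose from 15.9 ± 3.11 CPM to 26.1 ± 6.54 CPM (0.72 ± 0.16, adjusted p = 0.0454), a call lost without 9 of the 12 single libraries (adjusted p 0.0547 to 0.156). The family, picked after the called genes were known, held 41 tested members, of which these 3 rose, none fell and 27 were above 0, with a median of 0.04.

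The monocarboxylate carrier genes Slc16a13 and Slc16a11 lie tail to tail on chromosome 11, 372 bases apart in mm9, and both rose. Slc16a13, a lactate carrier, read 16.0, 15.9, 14.7, 12.9 and 13.3 CPM on control and 19.2, 21.5 and 26.7 CPM as lowest, median and highest on ketogenic (log2 change 0.61 ± 0.11, adjusted p = 0.00746). Slc16a11, linked in humans to type 2 diabetes risk, went from 3.52 ± 0.568 CPM to 6.30 ± 1.32 CPM (0.84 ± 0.16, adjusted p = 0.0127). Neither gene's groups overlapped. Of the 12 tested members of the family no other was called. Slc16a1, the ketone and lactate carrier MCT1, stood at 16.9 ± 2.43 CPM and 25.1 ± 7.01 CPM (0.58 ± 0.15, adjusted p = 0.147).

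Nkain1 (chr4:130125705-130169623, plus strand, mm9), a membrane protein that binds the sodium pump's beta subunit, had the third smallest p of all genes. Its control libraries read 4.10, 4.04, 3.67, 4.67 and 3.06 CPM and the ketogenic ones 7.93, 8.55 and 9.77 CPM as lowest, median and highest. The lowest ketogenic library exceeded the highest control by a wide margin, and the log2 change was 1.16 ± 0.13 (adjusted p = 2.15e-05). It was the single one of 6 annotated Nkain genes with enough counts to test. Atp12a, the nongastric proton-potassium pump subunit, was barely detected: 2, 4, 4, 0 and 0 reads in the control libraries and 6 to 28 reads in the ketogenic ones. Its fitted log2 change of 3.18 ± 0.65 (adjusted p = 0.0234) depends on the prior count.

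**Figure D2:**
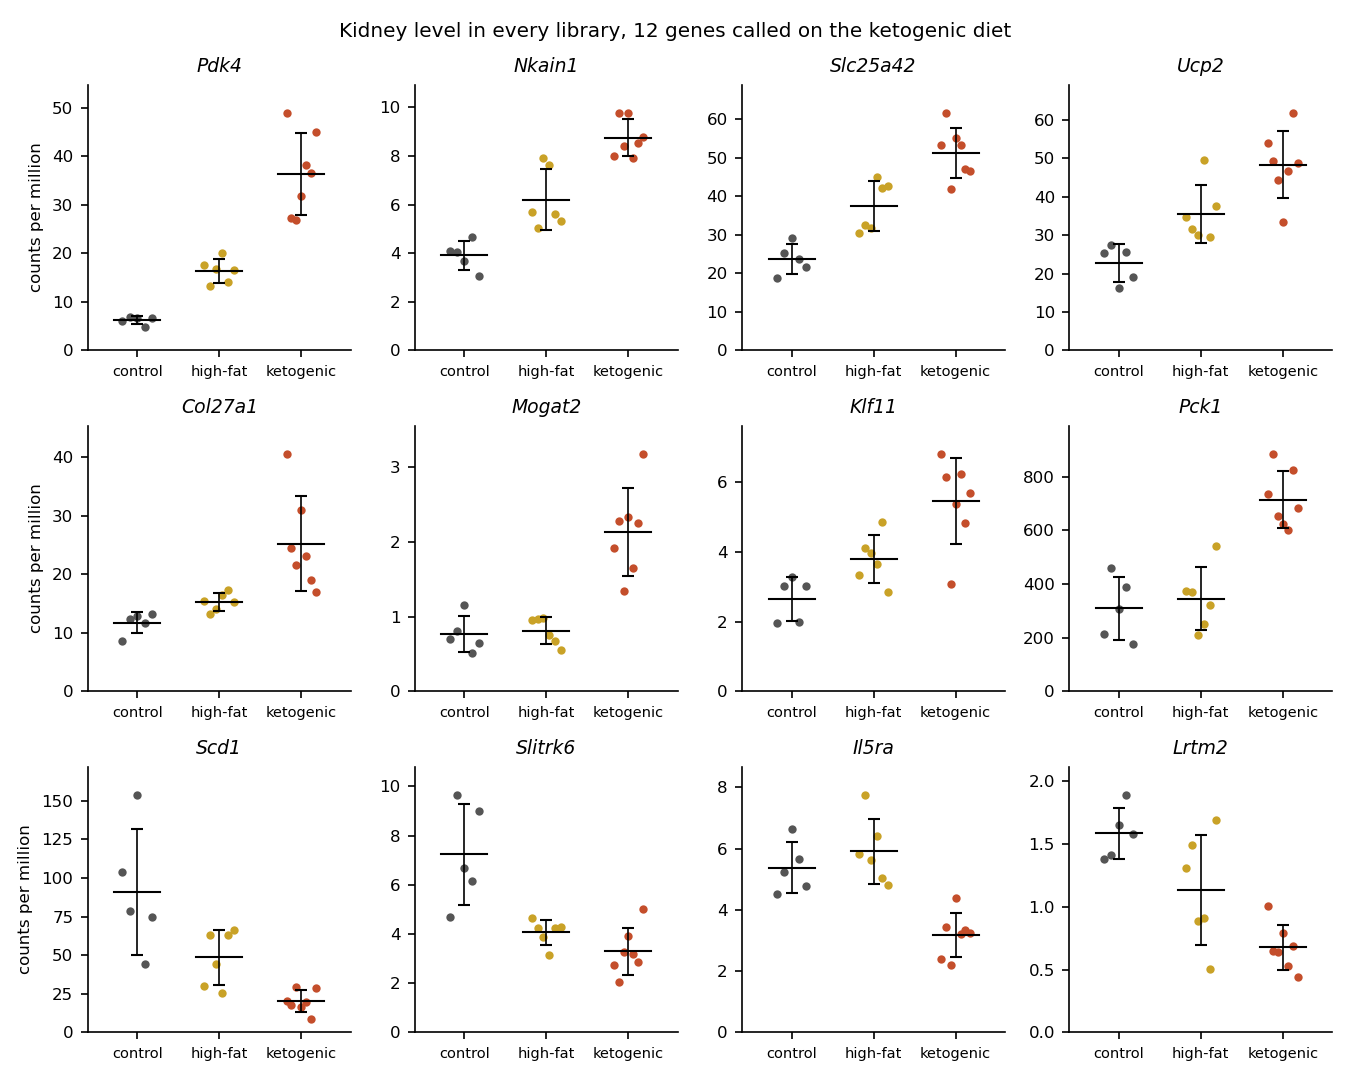
Level in CPM (y axis, from 0) of 12 called genes in each kidney library of the 3 diets (5 control, 6 high-fat, 7 ketogenic). Points are libraries, the bar is the mean and the whisker 1 SD. Ketogenic points lie above every control point for Pdk4, Nkain1, Slc25a42, Ucp2, Col27a1, Mogat2 and Pck1 and below every control point for Scd1, Il5ra and Lrtm2, while Klf11 and Slitrk6 overlap.

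Genes that store and mobilise fat formed another group. Mogat2 (chr7:106367594-106387129, minus strand, mm9) makes diacylglycerol from monoacylglycerol and is best known from intestinal fat absorption. It read 0.704, 0.809, 1.15, 0.516 and 0.648 CPM on control and 1.34, 2.25 and 3.17 CPM as lowest, median and highest on ketogenic, with no overlap, and rose by 1.47 ± 0.24 (adjusted p = 0.00238). The lipid droplet coat genes Plin5 and Plin2 rose as well. Plin5, which tethers droplets to mitochondria, read 0.780, 0.607, 0.449, 0.717 and 0.648 CPM on control and 1.15, 1.43 and 1.81 CPM as lowest, median and highest on ketogenic (1.17 ± 0.21, adjusted p = 0.00686). Plin2 went from 14.3 ± 1.26 CPM to 21.3 ± 2.54 CPM (0.57 ± 0.11, adjusted p = 0.00853). Lipe, the hormone-sensitive lipase, went from 3.02 ± 0.897 CPM to 5.07 ± 0.724 CPM (0.75 ± 0.16, adjusted p = 0.0345). In the lipolysis and lipid droplet list, 3 of 16 tested genes rose, none fell and the median was 0.10. Adipocyte markers summed to 23.9 to 63.5 CPM on control and 14.8 to 54.0 CPM on ketogenic, with 2 of 8 above 0. Their part in the values of Lipe and the Plin genes was not tested.

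Vnn1, the pantetheinase that recycles coenzyme A precursors, rose from 29.7 ± 7.61 CPM to 55.0 ± 10.1 CPM (0.89 ± 0.16, adjusted p = 0.00746). Reep6, which shapes membranes of the endoplasmic reticulum, read 16.8, 51.2, 23.3, 37.9 and 25.3 CPM on control and 55.1, 75.1 and 105 CPM as lowest, median and highest on ketogenic. The highest control library came close to the lowest ketogenic one without reaching it, and the log2 change was 1.29 ± 0.25 (adjusted p = 0.0199).

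Retsat, the retinol saturase, and Elmod3, an ELMO-domain protein that acts on small GTPases, are head to head on chromosome 6, with 62 bases between their annotated genes in mm9, and both rose. Elmod3 read 7.14, 7.45, 8.47, 7.22 and 6.56 CPM on control and 10.4, 12.3 and 14.4 CPM as lowest, median and highest on ketogenic (0.71 ± 0.11, adjusted p = 0.00151). Retsat read 72.8, 71.2, 61.3, 48.9 and 38.5 CPM on control and 78.6, 100 and 108 CPM as lowest, median and highest on ketogenic (0.73 ± 0.15, adjusted p = 0.0265). Neither pair of ranges overlapped. Their shared upstream region is shown because the 2 genes moved by nearly the same log2 change in this comparison. On the high-fat diet in kidney Elmod3 stood at 0.41 ± 0.11 and Retsat at 0.24 ± 0.16. In liver on the ketogenic diet they stood at 0.14 ± 0.16 and 0.76 ± 0.22. Shared regulation was not tested. The window is RefSeq's in GRCm38.p6 (another build than the mm9 of the counts), chr6:72598352-72598651, plus strand, 250 bases before to 50 after the Retsat start, and the capitals mark the 188 bases between the nearest annotated starts of the 2 genes.
Retsat and Elmod3: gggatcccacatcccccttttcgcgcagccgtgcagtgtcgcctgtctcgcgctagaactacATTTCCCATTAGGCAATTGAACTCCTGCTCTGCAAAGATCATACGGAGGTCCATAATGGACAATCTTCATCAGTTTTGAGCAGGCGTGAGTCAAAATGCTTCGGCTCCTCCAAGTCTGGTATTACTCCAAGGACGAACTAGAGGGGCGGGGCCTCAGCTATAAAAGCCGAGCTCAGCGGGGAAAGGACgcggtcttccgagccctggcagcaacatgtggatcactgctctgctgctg

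PPAR alpha binds repeats of the half-site AGGTCA, and the same kind of window was searched for it on both strands in the 34 called genes with a RefSeq promoter entry. At least 1 half-site was found for Acot3, Plin2, Plin5, Prkag2, Prrg4 and Slc25a34, in 18.6% of the called genes' windows against 16.3% of all 32851 windows. Neither a pair of half-sites in the same direction with 1 base between them, present in 0.0396% of all windows, nor the same pair with any base at the fourth place of each, present in 0.381%, was found in the called genes' windows. No match says only that these letters are absent from this window. The windows of Slc25a34 (GRCm38.p6 chr4:141623785-141624084, minus strand) and Plin5 (GRCm38.p6 chr17:56117499-56117798, minus strand) are printed as 2 examples of these 6, from a carrier and a droplet coat gene described above. Capitals mark the half-site, which reads TGACCT where it lies on the other strand and starts 119 bases before the Slc25a34 start and 170 before the Plin5 start.
Slc25a34: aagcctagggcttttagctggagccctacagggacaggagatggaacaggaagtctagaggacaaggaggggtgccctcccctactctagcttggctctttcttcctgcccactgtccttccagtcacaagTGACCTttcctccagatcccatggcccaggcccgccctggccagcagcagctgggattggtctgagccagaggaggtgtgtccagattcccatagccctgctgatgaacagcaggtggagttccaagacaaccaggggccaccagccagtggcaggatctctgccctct
Plin5: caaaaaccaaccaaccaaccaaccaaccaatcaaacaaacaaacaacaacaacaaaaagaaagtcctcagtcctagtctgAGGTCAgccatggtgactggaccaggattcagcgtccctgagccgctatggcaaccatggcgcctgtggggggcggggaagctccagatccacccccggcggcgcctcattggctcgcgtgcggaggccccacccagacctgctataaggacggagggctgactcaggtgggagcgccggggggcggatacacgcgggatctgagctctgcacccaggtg

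Regulators and receptors followed. Klf11, a zinc finger transcription factor, read 1.96, 3.03, 3.28, 2.01 and 3.03 CPM on control and 3.07, 5.71 and 6.82 CPM as lowest, median and highest on ketogenic, so that the lowest ketogenic library fell inside the control range. It rose by 1.04 ± 0.18 (adjusted p = 0.00652) and was the single call among 15 tested genes of the Klf family. Prkag2, a gamma subunit of the energy sensor AMPK, went from 6.52 ± 1.10 CPM to 9.39 ± 0.908 CPM (0.52 ± 0.11, adjusted p = 0.0345), a call lost without 9 of the 12 single libraries (adjusted p 0.0540 to 0.155), and none of the other 6 AMPK subunit genes was called. Paqr7, a membrane progestin receptor, went from 16.8 ± 2.50 CPM to 26.7 ± 3.66 CPM (0.67 ± 0.12, adjusted p = 0.00746). Adra1a, the alpha-1A adrenergic receptor, rose by 0.64 ± 0.14 from 4.56 ± 0.756 CPM (adjusted p = 0.042) with ranges that overlapped.

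Col27a1 (chr4:62875038-62996025, plus strand, mm9), a fibrillar collagen known from cartilage, read 8.65, 12.4, 13.0, 11.6 and 13.1 CPM on control and 16.999, 23.1 and 40.6 CPM as lowest, median and highest on ketogenic. The ketogenic libraries were spread widely but all lay above the controls (1.10 ± 0.17, adjusted p = 0.00151). It was the single call among 30 tested collagen genes, whose median was 0.04. Cox6b2, the testis form of a cytochrome oxidase subunit, went from 0.962 ± 0.167 CPM to 2.05 ± 0.636 CPM (1.08 ± 0.23). Spc25, of the kinetochore, rose by 0.65 ± 0.14 from 5.08 ± 0.620 CPM and Prrg4, a membrane protein with a Gla domain, by 0.65 ± 0.15 from 4.67 ± 0.693 CPM.

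The mitochondrial glutamate tRNA mt-Te rose from 20.2 ± 2.34 CPM to 36.0 ± 8.70 CPM (0.83 ± 0.16, adjusted p = 0.0102). Of 21 mitochondrial tRNA genes tested, 20 were above 0 with a median of 0.86, and of 12 mitochondrial protein genes tested 11 were above 0 with a median of 0.32, but no other of these was called. The mitochondrial share of counts, given above, was higher on the same diet, and its part in these values was not tested.

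Fewer genes fell. Scd1 (chr19:44468941-44482199, minus strand, mm9), the desaturase that makes oleate and an insulin and carbohydrate response gene, read 104, 78.7, 154, 44.0 and 74.5 CPM on control and 8.64, 19.4 and 29.5 CPM as lowest, median and highest on ketogenic. The groups did not overlap although the controls varied widely, and the level fell by 2.18 on the log2 scale (SE 0.33, adjusted p = 0.00533). Mid1ip1, which stimulates acetyl-CoA carboxylase together with Thrsp, read 5.38, 3.78, 3.67, 4.33 and 4.47 CPM on control and 1.93, 2.14 and 3.86 CPM as lowest, median and highest on ketogenic. Its highest ketogenic library lay within the control range, and it fell by 0.78 (SE 0.17, adjusted p = 0.0345). Thrsp went from 5.90 ± 3.87 CPM to 1.51 ± 0.448 CPM, Fasn (fatty acid synthase) from 17.6 ± 8.09 CPM to 8.29 ± 2.34 CPM with an adjusted p of 0.126 and Srebf1 (the lipogenic regulator) from 7.36 ± 1.46 CPM to 5.14 ± 0.844 CPM with an adjusted p of 0.136. In the fatty acid and triglyceride synthesis list, 1 of 25 tested genes rose (Mogat2), 2 fell and the median was -0.05.

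Slitrk6 (chr14:111147800-111154371, minus strand, mm9), a neuronal-type transmembrane protein known from the inner ear and eye, read 4.70, 9.65, 6.67, 6.13 and 9.01 CPM on control and 2.05, 3.21 and 5.02 CPM as lowest, median and highest on ketogenic. Its highest ketogenic library lay above its lowest control, and it fell by 1.14 (SE 0.18, adjusted p = 0.00238). Lrtm2, a leucine-rich repeat membrane protein, went from 1.59 ± 0.205 CPM to 0.677 ± 0.183 CPM and fell by 1.22 (SE 0.25, adjusted p = 0.0246). Il5ra, the alpha chain of the interleukin 5 receptor found on eosinophils, read 4.53, 5.23, 6.65, 5.68 and 4.79 CPM on control and 2.19, 3.26 and 4.40 CPM as lowest, median and highest on ketogenic, just apart. It fell by 0.76 (SE 0.16, adjusted p = 0.0239). Beside it, granulocyte markers summed to 0.289 to 1.63 CPM on control and 0.274 to 1.58 CPM on ketogenic, with 2 of 8 testable, and their part in the fall was not tested. Tstd2, with a rhodanese-like domain, went from 8.72 ± 1.15 CPM to 5.16 ± 0.963 CPM and fell by 0.76 (SE 0.17, adjusted p = 0.042). Tstd2 overlaps Tmod1 and Ncbp1 on the other strand, which stood at log2 changes of -0.96 (adjusted p = 0.397) and -0.43 (adjusted p = 0.279), and Lrtm2 overlaps Cacna2d4. Since strand-specific counting is not stated, overlapping genes cannot be told apart.

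Pck1 (chr2:172978549-172984774, plus strand, mm9), the gatekeeper of gluconeogenesis and an acid-induced gene of the proximal tubule, read 215, 462, 307, 389 and 177 CPM on control and 602, 684 and 885 CPM as lowest, median and highest on ketogenic. All ketogenic libraries were above all controls, with a log2 change of 1.21 ± 0.23 (adjusted p = 0.0118). It was the single call among 18 gluconeogenesis and glycogen genes (median -0.06) and among 20 ammonia and acid-base genes (median -0.01). G6pc, the last enzyme of glucose release, stood at 134 ± 19.2 CPM and 225 ± 75.7 CPM (0.75 ± 0.21, adjusted p = 0.189) and Fbp1 at 0.26 ± 0.15 (adjusted p = 0.664). The glutamine synthetase gene Glul stood at -0.12 ± 0.13 (adjusted p = 0.859).

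None of 12 ketone body genes was called, with 5 above 0 and a list median of -0.06. At an unadjusted edgeR p under 0.05, 3 of the 12 were higher and 2 lower. Over all genes tested, 8.35% were under that p in either direction. Bdh1, which interconverts the ketone bodies, stood at -0.01 ± 0.18 (adjusted p = 0.996). The carnitine palmitoyltransferase Cpt1a was at 97.8 ± 19.2 CPM and 133 ± 25.3 CPM (0.45 ± 0.16, adjusted p = 0.379), while Cpt2, next in line, was at 36.3 ± 8.07 CPM and 56.4 ± 8.67 CPM (0.63 ± 0.14).

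**Figure D3:**
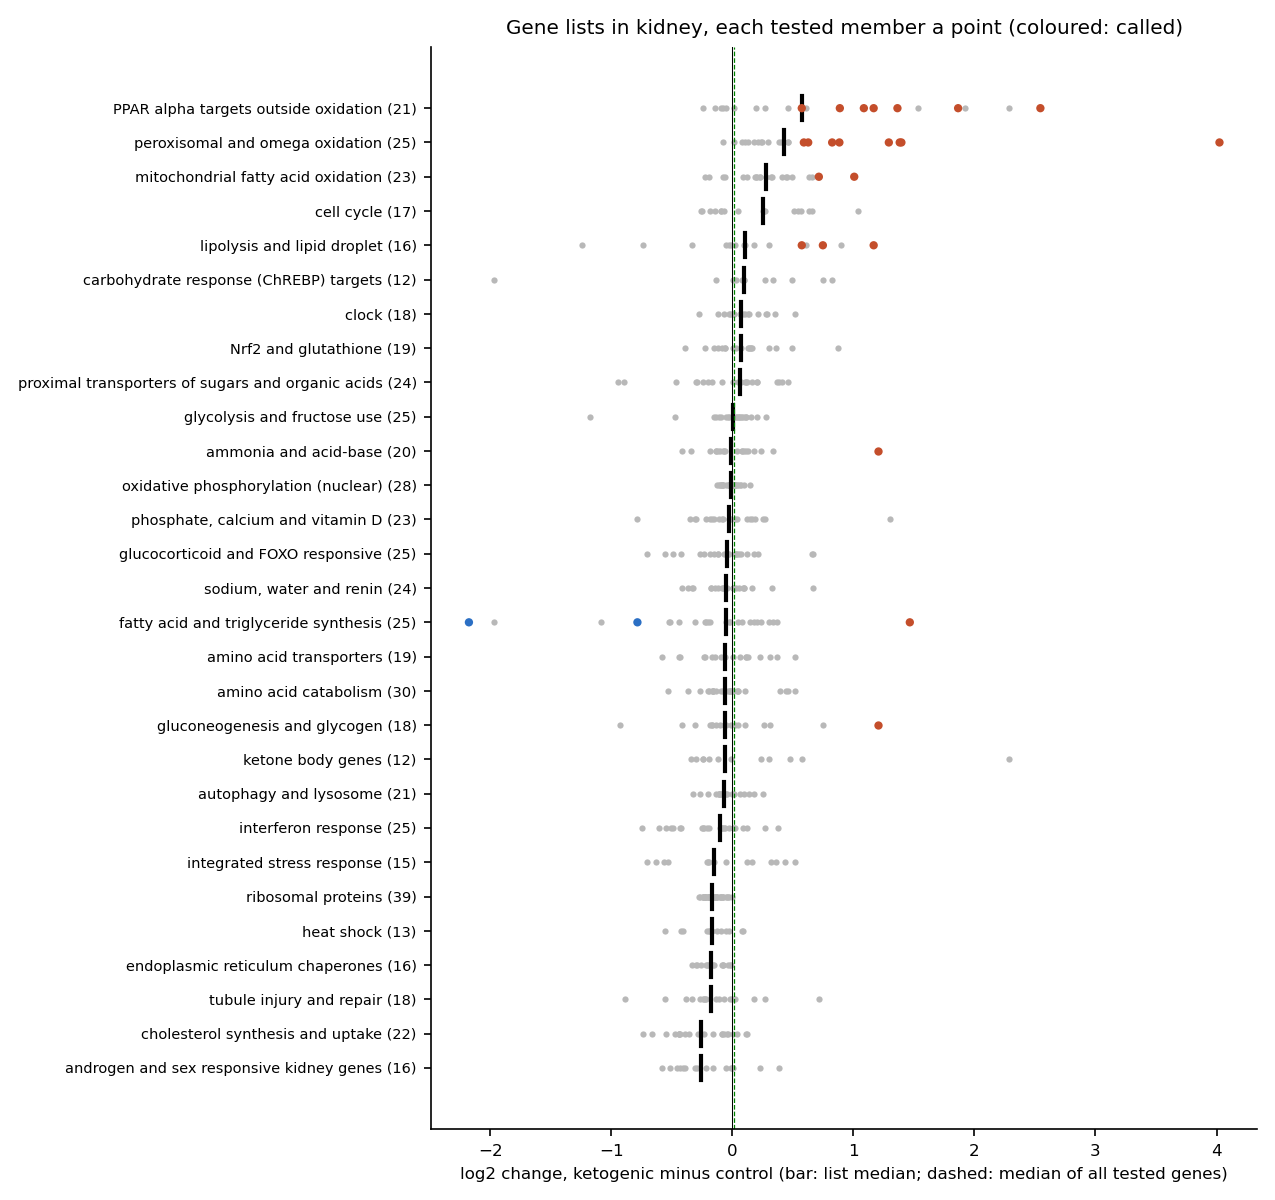
Log2 change (x axis, ketogenic minus control) of every tested member of 29 pathway lists (y axis, number tested in parentheses). Each point is a gene, coloured where called (red higher, blue lower), the black bar is the list median and the dashed line the median of all genes. Lists of fatty acid use stand at the top, and 22 lists hold no called gene.

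The other lists held no called gene. All 16 endoplasmic reticulum chaperone genes lay below 0 (median -0.17, smallest adjusted p Pdia3 0.48), as did 38 of 39 ribosomal protein genes (median -0.17) and 18 of 22 cholesterol synthesis and uptake genes (median -0.25), in which Idi1 at -0.74 ± 0.18 came nearest to the threshold (adjusted p = 0.0893). Over all genes tested, 53.2% were above 0. Nuclear oxidative phosphorylation genes stayed near 0, with 13 of 28 above it and a median of -0.01. Vitamin D 1-hydroxylase Cyp27b1, at 0.463 ± 0.139 CPM and 1.15 ± 0.262 CPM, had ranges apart (1.31 ± 0.35) but an adjusted p of 0.154. The other preset genes did not pass either: the glucose transporters Slc5a2 (0.12) and Slc2a2 (0.28), the clock gene Per1 (-0.12), renin gene Ren1 (0.10), the injury markers Havcr1 (0.18) and Lcn2 (-0.07), Calb1 (-0.21) and Fkbp5 (-0.56). The signs for Ren1, Havcr1, Lcn2 and Bdh1 changed with the settings of the test or with 1 library.

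Thick ascending limb markers were all 6 below 0, with a median of -0.31 and summed levels of 1104 to 1542 CPM on control and 730 to 1252 CPM on ketogenic. On the high-fat diet their median was -0.22. Other marker lists leaned the same way: 0 of 6 intercalated cell, 1 of 6 endothelium, 1 of 7 macrophage and 1 of 8 lymphocyte genes (median -0.60) were above 0. By contrast, 8 of 12 proximal tubule and 5 of 6 erythroid genes were above 0. Umod, the limb's secreted uromodulin, stood at 661 ± 124 CPM and 424 ± 74.3 CPM (-0.64 ± 0.19, adjusted p = 0.212), and no gene of any marker list was called. Their part in the values of the called genes was not tested.

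Of the called genes, 5 carry clone or predicted names. Gm15441, an antisense RNA that overlaps Txnip on the other strand of chromosome 3, went from 1.09 ± 0.354 CPM to 6.43 ± 2.12 CPM, a log2 change of 2.57 ± 0.46 (adjusted p = 0.0209). Txnip, an inhibitor of thioredoxin, stood at 0.50 ± 0.18 (adjusted p = 0.396), and without strand the 2 cannot be told apart. Gm16889 (1.40), Gm11465 (1.29), A930033H14Rik (0.96) and D630045J12Rik (0.58) also rose, and each overlaps another annotated gene. In all, 15 of the 49 overlap another gene and 11 lie within 50 kb of another called gene. These 11 are the called Acot, Cyp4a and Slc16a genes with Retsat and Elmod3, described above. The shares over all genes tested are not given, so neither count can be called unusual.

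The high-fat diet shares its 5 controls with the ketogenic comparison, so its values are given only side by side. The median high-fat log2 change was 0.49 for the 43 genes that rose on the ketogenic diet and -0.43 for the 6 that fell, against 0.01 over all genes. Pdk4 (1.40 ± 0.16, adjusted p = 2.98e-05) and Angptl4 (1.15 ± 0.17, adjusted p = 0.00238) were called there, which is 0.0133% of genes tested. Mogat2 read 0.552, 0.857 and 0.975 CPM as lowest, median and highest of the 6 high-fat libraries, inside the control range (0.09 ± 0.25). Pck1 read 210, 345 and 544 CPM (0.15 ± 0.23). Il5ra read 4.83, 5.74 and 7.75 CPM (0.14 ± 0.16), all above its ketogenic libraries. Slitrk6 read 3.13, 4.24 and 4.64 CPM (-0.82 ± 0.19), all below its lowest control. Cyp4a12b and Slc16a11, by contrast, had high-fat changes of 1.35 and 0.73 beside ketogenic ones of 1.38 and 0.84. The difference between the 2 fat-rich diets was not tested here.

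**Figure D4:**
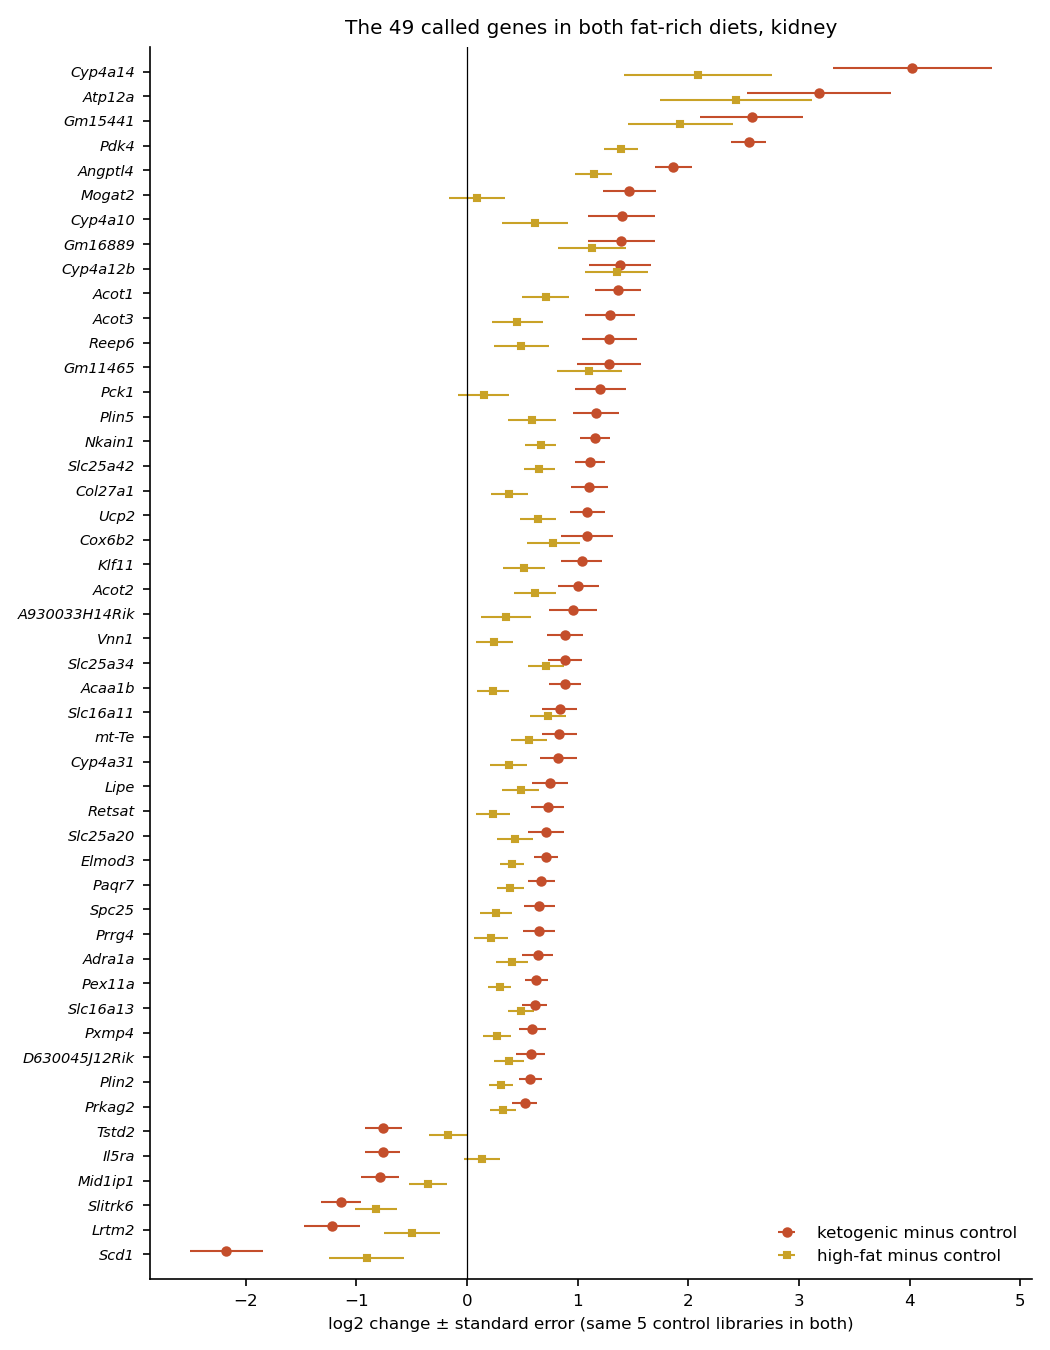
Log2 change with standard error (x axis) of the 49 called genes (y axis), ketogenic minus control (circles) and high-fat minus control (squares), from the same 5 control libraries. Mogat2 and Pck1 sit near 0 on the high-fat diet (0.09 and 0.15), and Il5ra is the gene whose high-fat value (0.14) has the other sign.

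The same diets were given in liver, in separate libraries of the same group sizes, and the labels do not say whether both tissues came from the same mice. There edgeR called no gene of 13374 tested, 1255 (9.38%) had an unadjusted p under 0.05 and DESeq2 called 76. Of the 49 kidney genes, 42 were tested in liver, and 36 of them had the same sign, 85.7% against 57.2% of the 12414 genes tested in both tissues. The median liver change was 0.66 for the genes that rose in kidney, against -0.02 over all liver genes. Scd1 went from 5894 ± 3674 CPM to 775 ± 1114 CPM in liver, a log2 change of -2.93 (unadjusted p = 0.00177), and Mid1ip1 by -1.24 with all 7 ketogenic libraries below the control mean. Pck1 stood at 1.44 and Gm15441, near 0 in liver controls at 0.0503 ± 0.0510 CPM, at 4.55. Several kidney genes gave liver values near 0 or below, among them Col27a1 (-0.54 ± 0.46), Cyp4a12b (-0.12 ± 0.31) and Prrg4 (0.00 ± 0.64). Nkain1, Slitrk6, Mogat2, Atp12a, Lrtm2, Cox6b2 and A930033H14Rik did not have enough liver counts to be tested.

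**Figure D5:**
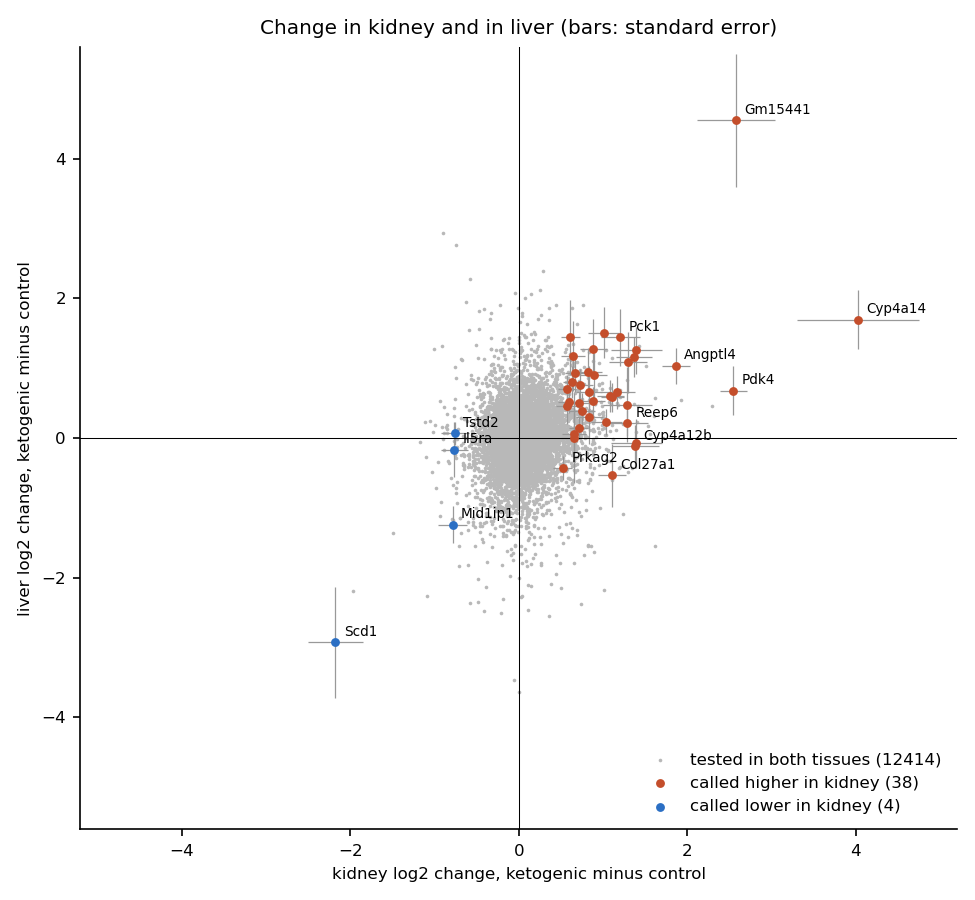
Kidney (x axis) against liver (y axis) log2 change, ketogenic minus control, for the 12414 genes tested in both tissues (grey) and the 42 called in kidney (red higher, blue lower), with standard errors. Most red points are above 0 in liver and Scd1 is low in both, while Prkag2 and Col27a1 are below 0 in liver.

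Leaving out 1 library at a time, 17 of the 49 genes kept their call each time: Pdk4, Angptl4, Nkain1, Slc25a42, Ucp2, Elmod3, Col27a1, Slitrk6, Acaa1b, Pex11a, Mogat2, Acot1, Scd1, Slc25a34, Klf11, Plin5 and Acot3. The other 32 lost it without at least 1 library. The losses were 29 without control library 3, 26 without control 0, 25 without control 4, 22 without ketogenic 1, 19 without control 2, 17 without ketogenic 0, 16 without ketogenic 5 and 14 or fewer without each of the others. Pck1 had an adjusted p of 0.0906 without control 0, 0.0598 without control 2, 0.0517 without control 4 and 0.0503 without ketogenic 1. Cyp4a14 had 0.0776 without control 0, 0.0852 without control 3, 0.0517 without control 4 and 0.0505 without ketogenic 1. D630045J12Rik lost its call without each of the 12 libraries (adjusted p 0.0555 to 0.284), Prrg4, Gm11465 and A930033H14Rik without 11, Adra1a, Tstd2 and Cyp4a10 without 10, and Slc25a20, Prkag2 and Spc25 without 9. Mid1ip1, Lrtm2 and Gm16889 lost it without 8, Retsat, Lipe, Pxmp4, Cox6b2 and Cyp4a31 without 7, Cyp4a12b without 6, Reep6 and Atp12a without 5, Gm15441 without 4 and Il5ra without 3. The remaining 7 lost it without 1 or 2. No called gene changed direction. In the authors' deposited table, made from the same libraries, 8 genes of 14794 passed a false discovery rate of 0.05. Of these, 7 were tested here and all 7 were also called. The other, Gm10800, did not pass the count filter here. The authors' values for it were a log2 change of -7.79 (control minus ketogenic) and a false discovery rate of 0.0102.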

How the data were processed

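The authors deposited 1 table per tissue of gene counts on mm9. The kidney columns hold raw counts per the file headers and were read as estimated counts, all whole, so none was rounded, and the liver columns hold counts per the file headers. The authors' own log2 fold changes and p-values (false discovery rates), per the file headers, entered 1 sentence of the report. Tools listed in the submitters' processing notes are edgeR, DESeq, featureCounts, Subread and TopHat2 2.0.11, whose roles are not given in the sources used here. Another 90 columns of per-sample values were not used.

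Genes were kept with filterByExpr (minimum count 10), scaled by TMM factors and tested with the robust quasi-likelihood F test of edgeR 4.0.16 in R 4.3.3, with all 18 kidney libraries in 1 fit and diet as the only term. The threshold was an adjusted p of 0.05. CPM are TMM-scaled and include mitochondrial counts. DESeq2 1.42.0, limma-voom 3.58.1, other scalings, filters and designs and each library left out were the alternatives, and the tests were checked on simulated data. Within a diet, no 2 kidney libraries agreed within sampling noise, and libraries of different diets were not compared in this way. Depth was 25.4 to 40.2 M counts per library.

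Named genes were all called genes with a proper symbol, up to 3 uncalled members of smallest p per list and 20 preset genes, of which 2 are not reported here, with values by library or group for those that fell and for up to 20 of smallest p. Members and lists were chosen with earlier results of these data known. Promoter windows are RefSeq's, GRCm38.p6.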

Additional observations from a re-analysis of the deposited data

Results flagged for a closer look

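In 134 groups of values examined for a library far from the rest, 4 were found, and chance flags about 1 group in 20. Cyp4a12b stood at 13.1 CPM in ketogenic library 1, with the other 6 at 5.50 to 8.61 CPM. Tstd2 stood at 7.08 CPM in ketogenic library 5, with the others at 4.35 to 5.51 CPM. Summed proximal tubule markers were 3541 CPM in control library 4 and 4874 to 5379 CPM in the other controls. Summed adrenal cortex markers were 1.203 CPM in ketogenic library 3 and 2.09 to 2.47 CPM in the others. Prkag2 stood on opposite sides of 0 in the 2 tissues: all 7 ketogenic kidneys were above the kidney control mean, and all 7 ketogenic livers were below the liver control mean. The liver log2 change of -0.43 did not pass the threshold (edgeR unadjusted p = 0.0218, adjusted p = 0.462), and the kidney call was lost in 13 of 25 alternatives. The difference between the tissues was not tested.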

How the results depend on the processing

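The 49 calls became 39 with control and ketogenic libraries alone in the fit, 105 with DESeq2 (82 higher, 23 lower), 44 with limma-voom, 48 without the robust option, 44 with RLE factors, 54 with upper-quartile factors, 18 with no normalization factors (12 higher, 6 lower, where the median of all genes was -0.10), 43 without mitochondrial and ribosomal RNA genes, 38 without a filter, 46 at a minimum count of 30, 51 with library number as a linear term and 40 with library number triplets as a block. The replicate block gave 55 calls (40 higher, 15 lower), of which 34 were among the 49. Whether the libraries are paired cannot be decided from 5 pairs. Deviations from the diet means correlated at -0.17, 0.39, -0.05, -0.22 and 0.28 in control and ketogenic pairs of the same title number. Of 5 ketogenic libraries, 2 correlated best with the control of their own number. In the 5 triplets of consecutive library numbers that hold both diets, the correlations were -0.17, 0.39, -0.05, 0.28 and 0.07.

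With each library left out in turn there were 21 (without control 3) to 48 calls, 18 to 40 higher and 3 to 8 lower. Over all 25 alternatives 11 of the 49 kept their call in each, 26 in at least 20, and none reversed. Calls on the high-fat diet, 2, became 15 with DESeq2 and 4 with the replicate block. The same-sign count in liver was 36 to 39 in 17 settings. The mitochondrial share difference was 1.40 to 2.99 points with 1 library left out, a test added after seeing the data.

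Uncalled genes near 0 changed sign. Bdh1 was 0.0021 with upper-quartile factors, 0.0065 with library triplets and -0.14 to 0.10 with 1 library left out. Lcn2 was 0.076 with limma-voom, 0.0053 with library number as a linear term, 0.048 with library triplets and -0.31 to 0.35 with 1 left out. Havcr1 was -0.073 with the replicate block and -0.087 to 0.41 with 1 left out. Ren1 was -0.023 with no normalization factors and -0.075 to 0.23 with 1 left out. The cause was not tested for any of these changes. Depth limits Atp12a, Gm11465 and Gm16889 most, with as few as 0, 10 and 8 reads in a library.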

Other observations

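Some genes stood apart between the diets in every library without passing the threshold. Gsta2, a glutathione transferase, was at 15.6 ± 5.31 CPM (SD, n = 5) on control and 28.6 ± 5.91 CPM (SD, n = 7) on ketogenic (log2 change 0.87, adjusted p = 0.155). Acaa2, the mitochondrial thiolase, was at 43.0 ± 7.60 CPM and 68.0 ± 14.7 CPM (0.66, adjusted p = 0.0603). Among all genes tested, 107 had ranges apart, 80 of them higher and 27 lower on the ketogenic diet.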
